A study of Mus musculus with 23 samples.

Results

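B16 tumors, grown from the B16-F10 melanoma line, were compared with tumors of 4 carcinoma models in RNAseq of whole tumor fragments. They were taken by their labels, as 3 of the 15 tumors analysed here, and the other 12 tumors were 3 each of LL2 (lung carcinoma), Pan02 (pancreatic ductal carcinoma), EO771 (breast carcinoma, line EO771.LMB) and MC38 (colon carcinoma). With 8 libraries of sorted cancer-associated fibroblasts (CAFs) from the 4 carcinoma models, 23 samples of the study were used in all. Every tumor was raised in adult female C57BL/6 mice by injecting 500000 cells into the flank. It was taken at endpoint with no treatment beyond engraftment, and ulcerated tumors had been left out by the study. All 5 lines come from C57BL/6 mice, and the labels name no other allele in the hosts. Each model is 1 cell line, so a difference of B16 from the rest cannot be told apart from a difference of this line. The labels number the tumors 1 to 3 and do not say which mouse each came from, so the p-values measure the spread between these tumors. B16-F10, LL2 and Pan02 cells had been cultured in DMEM with 10% FBS, while EO771.LMB and MC38 cells had been given other supplements.

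Melanoma cells descend from the neural crest, a migratory embryonic population that also gives rise to Schwann cells and much of the facial skeleton. Their identity is held by the transcription factors MITF, SOX10 and PAX3, which drive the enzymes that make melanin inside melanosomes, organelles related to lysosomes. Melanoma cells can also lose this pigmented state for a mesenchymal state with high AXL and AP-1 activity, while carcinoma lines start from epithelium.

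Values are CPM (library-scaled counts, by edgeR's TMM method), given for B16 tumors 1, 2 and 3 in that order and as the lowest, median and highest of the other 12. The log2 difference of B16 from the mean of the 4 other models, its standard error (SE) and its adjusted p come from edgeR's quasi-likelihood test over 15722 genes. A gene was called at an adjusted p under 0.05 with a log2 difference of 1 or more in size. Library sums were 10035173.0 to 20207545.5 in the B16 libraries and 11496882.5 to 21946486.0 in the others. B16 libraries correlated across genes at 0.9858 to 0.9869 with each other and at 0.7534 to 0.8489 with the other 12, as a description across genes that share these libraries. The melanoma label was checked with its defining markers, of which *Tyrp1*, *Dct*, *Pmel*, *Mlana* and *Tyr* summed to between 20904 and 26130.2 CPM in B16 tumors and to 8.71 to 30.04 CPM elsewhere.

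B16 tumors were higher for 2058 genes (13.1% of those tested) and lower for 3078 (19.6%). Against each of the 4 models taken singly, 918 genes (5.84%) were higher every time and 1149 (7.31%) were lower every time. All 3 B16 tumors lay above the other 12 for 2281 genes (14.5%) and below them for 1911 (12.2%). The median log2 difference over all genes was -0.03. In the accounts of gene lists, these shares are the background against which counts of members are read.

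Pigment genes carry a known regulatory word, CATGTG, the core of the M-box that MITF recognises, and so promoters were searched for it. The 300 bases from 250 before to 50 after the start site (RefSeq, GRCm38.p6) were found for 11790 of the 15722 genes tested, and 1041 of them (8.83%) held CATGTG on either strand. The share was 10.5% of promoters of genes higher in B16 and 10.6% of those lower. All 7 matched promoters of the 11 pigment genes held it, as did 2 of the 9 matched promoters among the 14 largest rises, *Dcdc2a* and *Tspan10*, and 1 of 11 among the 14 largest falls, *Hoxd10*. The first pair printed here, *Tyr* (chr7:87493463-87493762, minus strand) and *Tyrp1* (chr4:80833963-80834262, plus strand), shows the word in promoters of pigment enzymes, 21 and 46 bases before the start. The second pair, *Tspan10* (chr11:120442381-120442680, plus strand) and *Dcdc2a* (chr13:25055754-25056053, plus strand), shows it in genes named further on, 21 and 49 bases before the start. Capitals mark the word, which reads CACATG where it lies on the opposite strand.
Tyr: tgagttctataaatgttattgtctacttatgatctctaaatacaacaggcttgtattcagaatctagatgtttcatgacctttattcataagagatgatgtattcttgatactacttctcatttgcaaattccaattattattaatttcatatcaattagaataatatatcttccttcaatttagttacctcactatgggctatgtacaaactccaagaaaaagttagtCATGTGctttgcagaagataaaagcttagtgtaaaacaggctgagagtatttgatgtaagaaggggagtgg
Tyrp1: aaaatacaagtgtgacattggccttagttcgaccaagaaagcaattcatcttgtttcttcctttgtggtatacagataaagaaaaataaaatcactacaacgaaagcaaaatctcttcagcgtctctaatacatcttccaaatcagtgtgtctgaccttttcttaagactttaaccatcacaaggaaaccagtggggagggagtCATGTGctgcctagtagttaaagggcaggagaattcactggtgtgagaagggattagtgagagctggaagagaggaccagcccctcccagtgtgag
Tspan10: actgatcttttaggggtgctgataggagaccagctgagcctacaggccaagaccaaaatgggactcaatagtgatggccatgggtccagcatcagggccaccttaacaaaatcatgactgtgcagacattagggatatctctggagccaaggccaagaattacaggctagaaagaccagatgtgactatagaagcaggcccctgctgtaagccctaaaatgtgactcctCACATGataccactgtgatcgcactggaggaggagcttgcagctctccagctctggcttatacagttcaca
Dcdc2a: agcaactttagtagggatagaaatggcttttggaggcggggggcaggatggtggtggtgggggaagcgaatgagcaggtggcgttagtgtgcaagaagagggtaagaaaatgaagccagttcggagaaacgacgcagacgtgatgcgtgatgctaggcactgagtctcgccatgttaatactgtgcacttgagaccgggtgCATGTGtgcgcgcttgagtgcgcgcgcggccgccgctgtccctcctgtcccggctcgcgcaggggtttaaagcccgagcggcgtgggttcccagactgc
The other words searched, on either strand, were CACGTG (9.91% of all promoters, 10.3% of those higher and 7.94% of those lower), TGAGTCA, the site of AP-1 (3.92%, 3.14% and 6.97%), and ACAAAG, a core of SOX sites (13.5%, 14.2% and 15.3%). A match is a description of letters in this window and not a site of binding.

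Beyond pigment, single genes differed by up to 10.74 on the log2 scale. The rule took the 14 largest called changes each way among genes whose groups did not overlap. All 14 rises were called against each of the 4 models, as were 13 of the 14 falls. The exception, *Prss35*, was not called lower against LL2. The plot of the largest differences shows the rises and 12 of the falls in all 15 tumors.

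**Figure D1:**
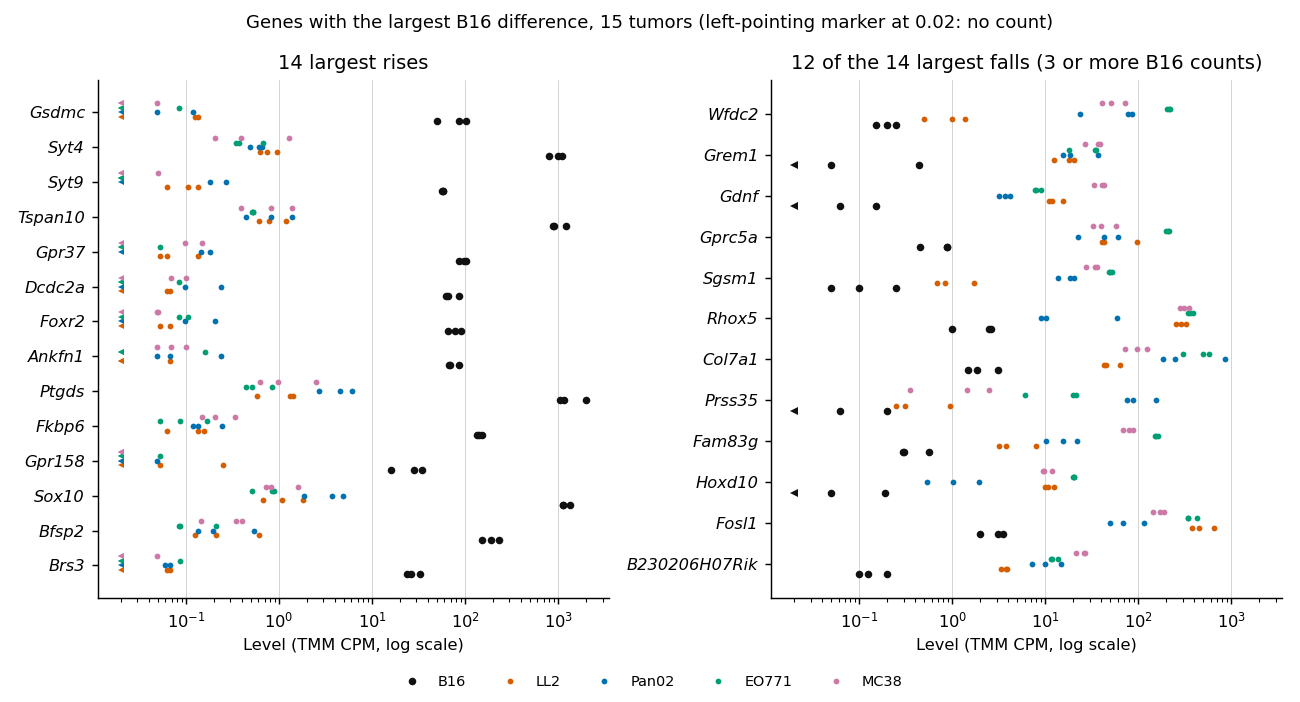
Level of the 14 genes with the largest rise (left) and 12 of the 14 with the largest fall, those with at least 3 counts over the B16 tumors (right) in each of the 15 tumors, as TMM-scaled CPM on a log axis. Black points are the 3 B16 tumors, colors the other models, and a left-pointing marker at 0.02 stands for no count. By the rule of choice the black points lie above all others on the left, with *Gsdmc* at 50.3 to 102 CPM, and below all others on the right, with *Col7a1* at 1.47 to 3.11 CPM.

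*Gsdmc*, a gasdermin of the family of pore-forming proteins, stood at 85.8, 50.3 and 102 CPM in B16 and at 0, 0.0241 and 0.136 CPM elsewhere (log2 difference 10.74 ± 0.33 SE, adjusted p = 1.3e-11). It has close paralogs, so reads may have been divided among them. *Tspan10*, a tetraspanin membrane protein, stood at 871, 1203 and 909.6 CPM against 0.385, 0.697 and 1.39 CPM (10.34 ± 0.22, adjusted p = 2.7e-13). For both genes none of the other 12 tumors reached 2 CPM.

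Vesicle and receptor genes made up 5 of the 14. *Syt4*, a synaptotagmin of vesicle fusion, stood at 1002, 1087 and 794 CPM against 0.205, 0.617 and 1.29 CPM, for a log2 difference of 10.62 ± 0.22 (adjusted p = 1.8e-13), with 14.5% of its exon bases shared with another gene. Its relative *Syt9* stood at 56.0, 57.8 and 58.0 CPM against 0, 0.0248 and 0.270 CPM, for a log2 difference of 10.42 ± 0.32 (adjusted p = 1.8e-10). *Gpr37*, like the next genes a G protein-coupled receptor, stood at 103, 97.0 and 86.6 CPM in B16 and at 0.180 CPM or less elsewhere. *Gpr158* stood at 27.9, 34.7 and 15.8 CPM in B16 and *Brs3*, the bombesin-like receptor, at 26.0, 32.8 and 24.0 CPM, against at most 0.2504 and 0.0871 CPM elsewhere. *Syt9* was among the steadiest of these, while B16 tumor 3 was the lowest for *Gpr158*.

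*Ptgds*, prostaglandin D2 synthase, reached 1161, 1988 and 1044 CPM against 0.436, 1.14 and 6.07 CPM elsewhere, for a log2 difference of 9.93 ± 0.29 (adjusted p = 6.9e-12). *Foxr2*, a forkhead transcription factor, stood at 78.5, 89.8 and 65.9 CPM against 0, 0.0509 and 0.202 CPM (10.25 ± 0.27, adjusted p = 2.3e-12). *Bfsp2*, a filament protein known from the eye lens, stood at 152, 190.3 and 233 CPM against 0.0849, 0.202 and 0.612 CPM, and *Fkbp6*, a germ cell immunophilin, at 141, 135 and 151 CPM against at most 0.337 CPM. Tumor 2 was highest for *Ptgds* and *Foxr2* and tumor 3 for *Bfsp2* and *Fkbp6*. The rule had required that the groups not overlap. The remaining rises were *Sox10*, described with the regulators, *Dcdc2a*, a doublecortin-domain gene at 62.7 to 86.9 CPM in B16, and *Ankfn1* at 66.6 to 86.3 CPM, both with at most 0.240 CPM elsewhere.

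Among the falls, *Wfdc2*, a secreted protease inhibitor of epithelia, stood at 0.196, 0.249 and 0.150 CPM in B16 and at 0.501, 61.2 and 219 CPM elsewhere (-7.15 ± 0.59, adjusted p = 1.9e-07). *Grem1*, a secreted BMP antagonist, stood at 0, 0.435 and 0.0499 CPM against 12.5, 23.4 and 39.0 CPM (-7.12 ± 0.60, adjusted p = 2.6e-07). The second of these was more than 10 CPM in each of the 12 carcinoma tumors, whereas *Wfdc2* ranged widely among them. *Gdnf*, the glial cell line-derived neurotrophic factor, stood at 0, 0.0622 and 0.150 CPM against 3.18, 9.95 and 42.6 CPM, for a log2 difference of -6.90 ± 0.34 (adjusted p = 1.3e-09).

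*Col7a1*, the anchoring fibril collagen of epithelia, stood at 1.47, 3.11 and 1.85 CPM against 42.4, 153 and 847 CPM (-6.33 ± 0.59, adjusted p = 6.6e-07). *Fosl1*, the AP-1 factor FRA1, stood at 1.96, 3.48 and 3.09 CPM against 49.3, 266 and 652 CPM (-6.24 ± 0.34, adjusted p = 3.5e-09), although 57.2% of its exon bases overlap another gene. *Rhox5*, an X-linked homeobox gene, stood at 2.46, 2.61 and 0.998 CPM against 8.88, 299 and 383 CPM (-6.45 ± 0.67, adjusted p = 1.9e-06). All 3 B16 tumors were low for each of these genes, with no overlap, as the rule required.

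For falls with 3 counts or fewer over the B16 libraries, ratios were taken from pooled counts with a 95% interval that covers counting error only. *Ky*, a muscle protein, had 2 counts in B16 and was 289 times higher elsewhere (79.9 to 2383), and *Prss35*, a serine protease-like gene, had 3 counts and a ratio of 479 (164 to 2322). A further 5 of the falls were *Gprc5a*, *Sgsm1*, *Fam83g*, *Hoxd10* and *B230206H07Rik*, with log2 differences from -6.60 to -6.23, of which the last overlaps another gene over 46.0% of its exon bases. Their highest B16 values were between 0.187 and 0.884 CPM.

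The regulators of melanocyte identity were mostly high in B16. Of 16 tested regulators, 10 were higher (62.5%) and 3 lower (18.8%), with a median log2 difference of 1.71. All 11 pigment genes were higher, with a median of 10.56. *Mitf*, the master factor of the lineage, stood at 1019, 735 and 566 CPM against 7.30, 15.4 and 31.4 CPM (5.49 ± 0.21, adjusted p = 9.4e-11). *Sox10* stood at 1137, 1349 and 1123 CPM against 0.509, 0.979 and 4.93 CPM (9.80 ± 0.23, adjusted p = 7.6e-13). *Pax3* stood at 244, 265 and 233 CPM against 0.135, 3.22 and 22.3 CPM (7.02 ± 0.15, adjusted p = 4e-13), and its highest levels elsewhere were in MC38, with a mean of 19.3 CPM. B16 tumor 1 was highest for *Mitf*, and for all 3 factors each B16 tumor lay above the other 12.

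Paralogs within these families went in opposite directions. *Tbx2*, a T-box repressor of senescence genes, stood at 370.1, 521 and 357 CPM against 1.99, 4.84 and 192 CPM (5.16 ± 0.31, adjusted p = 8.4e-09), while *Tbx3* stood at 0.0982, 1.74 and 0.798 CPM against 7.02, 36.2 and 104 CPM (-5.18 ± 0.64, adjusted p = 9.7e-06). *Sox9*, the SOX factor of cartilage and many epithelia, stood at 11.6, 35.0 and 13.5 CPM against 90.4, 157 and 448 CPM (-3.27 ± 0.38, adjusted p = 5.5e-06), the reverse of *Sox10*. *Rab27a*, which carries melanosomes, stood at 376, 427 and 368 CPM against 2.38, 5.78 and 19.6 CPM (5.93 ± 0.21, adjusted p = 5.6e-11), while *Rab27b* stood at 0.295, 0.249 and 0.249 CPM against 4.02, 7.57 and 28.5 CPM (-5.19 ± 0.32, adjusted p = 1.2e-08). None of these 5 genes overlapped between B16 and the other tumors, although Pan02 alone, with a mean of 146 CPM, accounted for the high *Tbx2* values elsewhere.

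Genes of melanosome formation and transport were higher in 10 of 23 (43.5%) and lower in none, with a median of 0.78, and 9 were higher against each of the 4 models. *Rab38*, which delivers pigment enzymes, stood at 407, 377 and 372 CPM against 0.349, 0.709 and 2.63 CPM, for a log2 difference of 8.77 ± 0.13 (adjusted p = 1.2e-14). *Mlph*, the linker between RAB27A and its motor, stood at 460.5, 501 and 517 CPM against 1.78, 5.67 and 26.2 CPM, for a log2 difference of 6.24 ± 0.21 (adjusted p = 2.3e-11). *Gpnmb*, a melanosomal and lysosomal glycoprotein, reached 6134, 8779 and 6880.4 CPM against 29.2, 59.5 and 221 CPM, for a log2 difference of 6.55 ± 0.20 (adjusted p = 1.1e-11). All 3 genes were separated by more than 10 times between the lowest B16 tumor and the highest other tumor. Among Rab GTPases, the switches of vesicle traffic, 9 of 55 were higher (16.4%) and 7 lower (12.7%), against 13.1% and 19.6% over all genes. *Rab17* joined *Rab38* at the top at 80.3, 87.4 and 73.4 CPM against at most 1.36 CPM elsewhere.

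Genes of the neural crest and Schwann cells divided evenly, with 8 of 23 higher and 8 lower (34.8% each). Without B16 tumor 1 or B16 tumor 2 the lower count was 4 or 5. *S100b*, a glial calcium-binding protein, stood at 89.4, 166 and 72.3 CPM against 0, 0.247 and 2.10 CPM, with a log2 difference of 8.48 ± 0.38 (adjusted p = 4e-10). *Cdh19*, a cadherin of Schwann cell precursors, stood at 88.0, 91.5 and 66.9 CPM against 0, 0.205 and 1.08 CPM, and *Nrcam*, a neuronal adhesion molecule, at 372, 383 and 314 CPM against 0.890, 2.25 and 95.6 CPM. The high values of *Nrcam* elsewhere came from Pan02, with a mean of 58.0 CPM.

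The transcription factors of developmental families, 239 in all, were more often lower (94, 39.3%) than higher (54, 22.6%), with a median of -0.78. *Plagl1*, an imprinted zinc finger gene, stood at 343, 288 and 259 CPM against 0.977, 1.25 and 14.2 CPM (6.68 ± 0.28, adjusted p = 2.3e-10). *Alx1*, a homeobox gene of the facial neural crest, stood at 30.5, 27.0 and 27.3 CPM, and elsewhere it was near 0 but for MC38, with a mean of 13.4 CPM. *Nr4a3*, an orphan nuclear receptor, stood at 358, 369 and 223 CPM against 2.92, 5.25 and 30.2 CPM (5.49 ± 0.36, adjusted p = 1.9e-08), while *Vdr*, the vitamin D receptor, stood at 0.491, 1.74 and 1.70 CPM against 1.83, 26.5 and 63.8 CPM. Among nuclear receptors 6 of 35 were higher and 8 lower, shares of the order of the background. Imprinted genes were higher in 6 of 21 (28.6%) and lower in 11 (52.4%), with *Sgce*, a sarcoglycan gene, at 80.5, 94.3 and 82.4 CPM against 3.23, 19.004 and 22.2 CPM among the former.

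**Figure D2:**
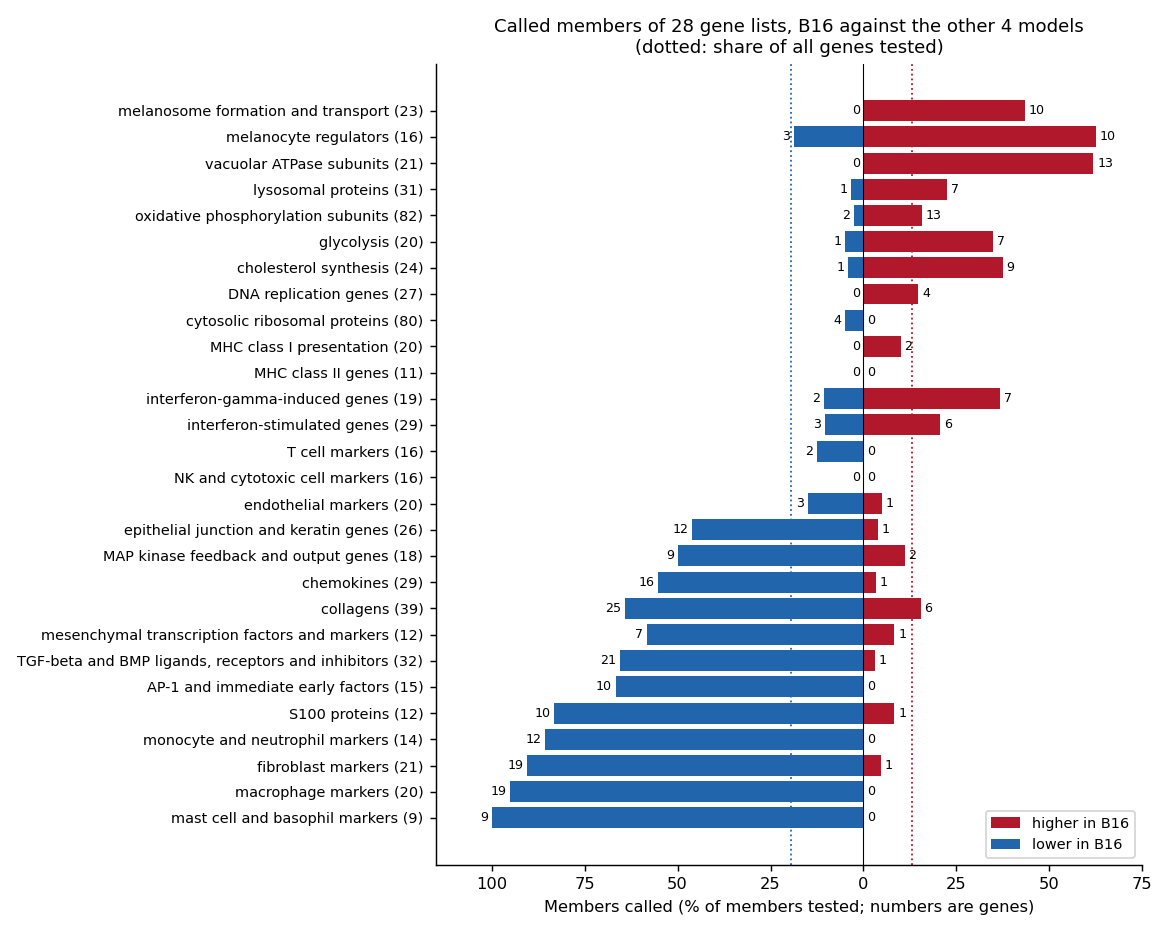
Share of the tested members of 28 gene lists that were called higher (right, red) or lower (left, blue) in B16 tumors against the mean of the other 4 models, in percent on the x axis. Numbers beside the bars are genes, the number tested is in brackets, and dotted lines mark the shares over all genes tested, 13.1% and 19.6%. Vacuolar ATPase subunits were higher in 13 of 21, and macrophage markers were lower in 19 of 20.

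Among the lists of metabolism, subunits of the vacuolar ATPase, the proton pump of lysosomes and melanosomes, were higher in 13 of 21 (61.9%) and lower in 0, with 1 lower by DESeq2 or without Pan02 tumor 1, and a median of 1.20. Their summed level was 3561 to 4044 CPM in B16 and 1354 to 2165 CPM elsewhere. *Atp6v0a1* stood at 335, 471 and 395 CPM against 54.9, 104 and 199.9 CPM (1.94 ± 0.11, adjusted p = 6.9e-09), and *Atp6v0e2* at 205, 245 and 199 CPM against 0, 1.69 and 15.2 CPM (6.85 ± 0.26, adjusted p = 9.2e-11). Neither gene overlapped between groups. Lysosomal proteins were higher in 7 of 31 (22.6%) and lower in 1 (3.23%), with a median of 0.38. *Naglu*, which degrades heparan sulfate, stood at 447, 659.6 and 450.5 CPM against 47.9, 78.1 and 189 CPM (2.58 ± 0.12, adjusted p = 7.5e-10), while the protease *Ctsl* stood at 180.1, 250.5 and 202 CPM against 412, 923 and 2091 CPM (-2.22 ± 0.29, adjusted p = 1.6e-05), with 26.8% of its exon bases shared.

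Mitochondrial genes were read from a regulator and 4 lists. *Ppargc1a*, the coactivator PGC1-alpha that drives mitochondrial genes and is a known MITF target, stood at 82.8, 74.9 and 68.6 CPM against 0.106, 0.337 and 5.23 CPM (6.85 ± 0.45, adjusted p = 1.9e-08). Subunits of oxidative phosphorylation were higher in 13 of 82 (15.9%), near the background of 13.1%, and lower in 2 (2.44%). The median was 0.58 and 72 of the 82 had a positive difference, but only 2 were higher against each of the 4 models. Their summed level was 12872 to 14402 CPM in B16 and 6651 to 11445 CPM elsewhere, without overlap. *Ndufa4* stood at 323, 318 and 377 CPM against 47.0, 114 and 148 CPM (1.76 ± 0.12, adjusted p = 3e-08), and *Sdhb*, of succinate dehydrogenase, at 271, 266 and 320.2 CPM against 67.3, 110.0 and 149.99 CPM (1.45 ± 0.10, adjusted p = 5e-08). All B16 tumors lay above the other 12 for both genes.

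The tricarboxylic acid cycle was higher in 4 of 18 genes and fatty acid oxidation in 5 of 18, with none lower in either. *Ogdh*, of the cycle, stood at 565, 577 and 634 CPM against 171, 241 and 270.3 CPM (1.36 ± 0.07, adjusted p = 1.5e-09), and *Eci2*, an isomerase of unsaturated fatty acids, at 115, 112 and 107 CPM against 25.9, 33.6 and 48.0 CPM (1.68 ± 0.08, adjusted p = 4.7e-10). Both had little spread among B16 tumors and no overlap. By contrast, mitochondrial ribosomal proteins were higher in 2 of 75, with a median of 0.18. That count became 4 without B16 tumor 1, B16 tumor 2, LL2 tumor 1, Pan02 tumor 3 or MC38 tumor 2.

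Glycolysis genes were higher in 7 of 20 (35.0%) and lower in 1, with a median of 0.79. Their summed level was 18791 to 19798 CPM in B16 and 7573 to 13723 CPM elsewhere. *Aldoc* stood at 157, 182 and 115 CPM against 3.47, 16.5 and 65.8 CPM (3.25 ± 0.20, adjusted p = 9.3e-09), and *Pgk1* at 352, 326 and 314 CPM against 49.5, 109.6 and 179.6 CPM (1.65 ± 0.16, adjusted p = 8.5e-07). Genes of the hypoxia response, a list that overlaps glycolysis in function, were higher in 3 of 21 (14.3%) and lower in 4 (19%). Both shares were near the background, and the median was -0.26. *Egln3*, a prolyl hydroxylase induced by hypoxia, stood at 10.8, 15.3 and 12.8 CPM against 72.4, 258 and 527 CPM (-4.16 ± 0.30, adjusted p = 5.8e-08). Cholesterol synthesis genes were higher in 9 of 24 (37.5%) and lower in 1, with a median of 0.87, and *Insig1*, the sterol-sensing brake of the pathway, stood at 282, 294 and 283 CPM against 39.4, 67.9 and 109 CPM (2.00 ± 0.10, adjusted p = 9.4e-10). Genes of the amino acid response and serine synthesis were higher in none of 21 and lower in 5, with 1 higher without B16 tumor 3.

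Growth genes were read from lists of the cell cycle and of protein synthesis. Mitosis genes were higher in 1 of 22 and lower in none, although 21 of the 22 differences were positive and the median was 0.58, and 3 were higher without B16 tumor 2 and 2 with the replicate block, with the longest transcript, or without LL2 tumor 1, Pan02 tumor 1, EO771 tumor 2 or MC38 tumor 2. DNA replication genes were higher in 4 of 27 (14.8%, near the background of 13.1%), or in 2 without B16 tumor 3, with 26 positive differences. *Mcm2*, of the replicative helicase, stood at 738, 543 and 830.2 CPM against 76.5, 226 and 290.1 CPM (1.90 ± 0.12, adjusted p = 1.3e-08), without overlap. *Mki67*, the proliferation marker, stood at 356, 244 and 306 CPM against 68.6, 129.8 and 254 CPM (1.28 ± 0.14, adjusted p = 2.8e-06), and its B16 range overlapped that of the other tumors. Ribosome biogenesis (0 higher and 1 lower of 28), cytosolic ribosomal proteins (0 and 4 of 80) and proteasome subunits (1 and 0 of 37) had shares of calls below the background.

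The growth regulators *Myc* and *Ccnd1* were lower. *Myc* stood at 93.3, 85.3 and 108 CPM against 136, 452 and 1063 CPM (-1.98 ± 0.17, adjusted p = 2.7e-07), with means of 859.9 CPM in LL2 and 762 CPM in EO771 and of 162 and 189.5 CPM in Pan02 and MC38. *Ccnd1*, cyclin D1, stood at 296, 267 and 277 CPM against 470.2, 596 and 828 CPM (-1.12 ± 0.10, adjusted p = 4.3e-07), with 23.4% of its exon bases shared. For both genes the B16 tumors lay below the other 12, but neither was called against each of the 4 models.

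*Cdkn2a*, the INK4A and ARF locus at chr4:89274473-89294619 (mm10), stood at 0.295, 0.373 and 0.249 CPM in B16 and at 0.417, 1.65 and 7.45 CPM elsewhere (-2.58 ± 0.40, adjusted p = 7.1e-05). Its 14 counts over the B16 libraries lie close to the floor of 3 per library. It was called lower against Pan02, MC38 and EO771, with means of 4.13, 7.01 and 0.742 CPM, and not against LL2, with a mean of 0.557 CPM (-0.84, adjusted p = 0.15). *Cdkn2b*, the adjoining INK4B gene, stood at 0.393, 0.497 and 0.399 CPM against 0.544, 3.35 and 15.99 CPM (-2.87 ± 0.38, adjusted p = 1.9e-05). Its 20 counts over the B16 libraries also lie close to the floor. *Cdkn2b* was called lower against Pan02 and MC38, with means of 9.46 and 12.7 CPM, and against EO771 (-1.78, adjusted p = 0.0032). It was not called against LL2, with a mean of 0.581 CPM (-0.42, adjusted p = 0.46). *Mtap*, on the other side of *Cdkn2a*, stood at 146, 109 and 154 CPM against 55.2, 116 and 344 CPM and was not called (0.08 ± 0.16, adjusted p = 0.7). The neighbours *Klhl9* (0.21 ± 0.13, adjusted p = 0.15) and *Focad* (-0.10 ± 0.13, adjusted p = 0.51) were not called either, nor were *Hacd4* (0.14 ± 0.28, adjusted p = 0.68) and *LOC106557447* (-1.24 ± 0.48, adjusted p = 0.063). The B16 mean of *LOC106557447*, 0.736 CPM, was below those of LL2, Pan02 and MC38 (8.31, 7.28 and 4.99 CPM) and above that of EO771 (0.029 CPM). *Wincr1*, also not called, was at 0 in all B16 and EO771 tumors. Its means in the other models, in the same order, were 2.70, 5.32 and 7.23 CPM. *Gm12602*, next to *Mtap*, was called lower at 0.0982, 0.622 and 0.349 CPM (-1.69 ± 0.46, adjusted p = 0.0061), but it was higher than in EO771 (2.81, adjusted p = 0.0043).

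Among cell cycle brakes and tumor suppressors 2 of 19 were higher (10.5%) and 3 lower (15.8%), shares near the background. The higher count was 1 without B16 tumor 1 or LL2 tumor 2. Targets of p53 were lower in 9 of 23 (39.1%) and higher in 2, with a median of -0.47. *Fas*, the death receptor, stood at 0.982, 1.06 and 1.40 CPM against 2.58, 5.02 and 31.2 CPM (-2.53 ± 0.26, adjusted p = 2.1e-06), and *Plk2*, a stress kinase, at 21.9, 20.2 and 17.0 CPM against 31.7, 66.2 and 141 CPM (-1.84 ± 0.18, adjusted p = 1.3e-06). *Trp53* itself stood at 146, 137 and 170.0 CPM against 141, 182 and 314 CPM and was not called (-0.43 ± 0.11, adjusted p = 0.0038).

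MAP kinase signalling acts through ERK on AP-1 factors and on its own feedback genes. AP-1 and immediate early factors were lower in 10 of 15 (66.7%) and higher in none, with a median of -1.77, and the count was 6 without B16 tumor 1. Feedback and output genes of MAP kinase were lower in 9 of 18 and higher in 2, with a median of -0.87. *Etv4*, an ETS factor downstream of ERK, stood at 3.44, 2.11 and 3.64 CPM against 31.2, 94.1 and 169.9 CPM (-4.86 ± 0.33, adjusted p = 2.6e-08), and *Epha2*, an ephrin receptor, at 4.03, 5.60 and 3.79 CPM against 91.4, 173 and 368 CPM (-5.45 ± 0.23, adjusted p = 2.6e-10). The B16 values of both lay below every other tumor. *Dusp4*, an ERK phosphatase, went the other way at 259, 244 and 217 CPM against 31.6, 81.1 and 246 CPM (1.33 ± 0.26, adjusted p = 0.00063), though EO771, with a mean of 237 CPM, reached the B16 level.

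**Figure D3:**
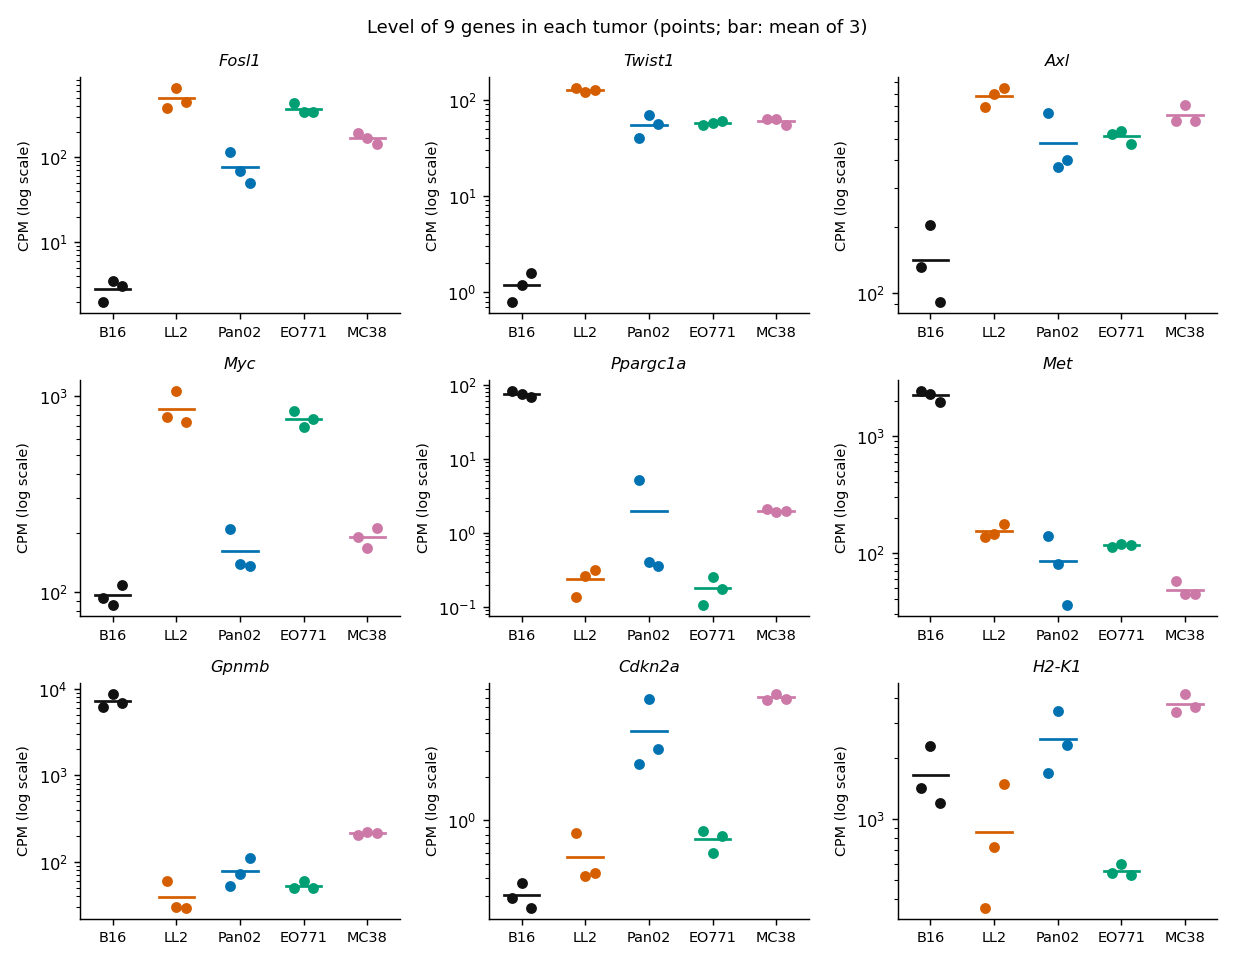
Level of 9 genes in each of the 15 tumors as TMM-scaled CPM, with a log y axis for each gene. Points are tumors and bars are means of 3. *Fosl1*, *Twist1*, *Axl* and *Myc* are lowest in B16, *Ppargc1a*, *Met* and *Gpnmb* are highest, *Cdkn2a* in B16 lies nearest to LL2, and *H2-K1* in B16 (1205 to 2299 CPM) lies within the range of the other models.

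Receptor tyrosine kinases were lower in 22 of 40 and higher in 7, with a median of -1.11. *Met*, the receptor of hepatocyte growth factor, stood out at 2426, 2293 and 1942 CPM against 35.6, 114 and 177 CPM (4.59 ± 0.22, adjusted p = 9.4e-10). *Erbb3*, the neuregulin receptor of neural crest cells, stood at 65.3, 83.4 and 64.0 CPM against 1.77, 6.46 and 17.5 CPM (3.46 ± 0.15, adjusted p = 3.3e-10). *Kit*, the stem cell factor receptor of melanoblasts and mast cells, stood at 37.6, 35.7 and 55.03 CPM against 5.402, 8.86 and 37.1 CPM (1.94 ± 0.23, adjusted p = 6.9e-06) and overlapped with Pan02, which had a mean of 30.1 CPM. In the other direction, *Axl* stood at 131, 203 and 91.2 CPM against 374, 601 and 849.8 CPM (-2.06 ± 0.23, adjusted p = 4.1e-06) and *Fgfr1* at 17.6, 31.8 and 29.9 CPM against 353, 517 and 955 CPM (-4.38 ± 0.23, adjusted p = 2e-09). Each of the B16 tumors was below every other tumor for both.

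Wnt ligands and their Fzd receptors were lower in 12 of 23 (52.2%) and higher in 4, with a median of -2.00. Their summed level in B16, 271 to 278 CPM, lay above that in MC38, 205 to 259 CPM. Wnt targets and feedback genes were lower in 8 of 18 (44.4%) and higher in 3. *Axin2*, a direct target of beta-catenin, was one of those higher, at 37.3, 49.8 and 36.2 CPM against 1.41, 4.06 and 19.6 CPM (3.11 ± 0.22, adjusted p = 5e-08). *Ctnnb1*, beta-catenin, stood at 1937, 1957 and 1716 CPM against 377, 609 and 873 CPM (1.67 ± 0.09, adjusted p = 3.4e-09), with 15.1% of its exon bases shared. *Dkk3*, a secreted protein of the Dickkopf family, stood at 454, 589 and 373 CPM against 3.29, 18.3 and 138 CPM (4.50 ± 0.28, adjusted p = 1.1e-08), and Pan02 was again the nearest, with a mean of 134 CPM. *Wnt7b* stood at 0.786, 1.12 and 0.748 CPM against 0.822, 168 and 511 CPM (-6.97, adjusted p = 6.4e-05), the lowest of the other tumors lying within the B16 range.

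Ligands, receptors and inhibitors of TGF-beta and BMP were lower in 21 of 32 (65.6%) and higher in 1, with a median of -2.12. *Ltbp1*, which stores latent TGF-beta in matrix, stood at 6.58, 7.09 and 8.88 CPM against 39.7, 219.7 and 500.2 CPM (-4.56 ± 0.15, adjusted p = 3e-11). The single rise was *Bambi*, a decoy receptor, at 12.8, 13.3 and 11.6 CPM against 1.27, 2.501 and 5.68 CPM (2.17 ± 0.21, adjusted p = 9.3e-07). Targets of YAP were lower in 6 of 14 (42.9%) and higher in 1, with *Cyr61*, a matricellular protein, at 31.04, 35.8 and 29.4 CPM against 78.7, 179.8 and 799.7 CPM (-2.72 ± 0.52, adjusted p = 0.00049). None of the 3 genes overlapped between groups.

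Mesenchymal transcription factors and markers were lower in 7 of 12 (58.3%) and higher in 1, with a median of -2.98. *Twist1* stood at 0.786, 1.18 and 1.60 CPM against 40.4, 61.3 and 133 CPM (-5.80 ± 0.22, adjusted p = 9.9e-11), *Snai1* at 3.14, 6.28 and 3.59 CPM against 53.9, 109 and 171 CPM (-4.65 ± 0.33, adjusted p = 4.6e-08) and *Prrx1*, which marks mesenchyme, at 3.73, 6.53 and 6.78 CPM against 52.0, 101 and 288 CPM (-4.34 ± 0.22, adjusted p = 1.3e-09). In all 12 carcinoma tumors each of these was at least 40 CPM, and in no B16 tumor did it reach 10 CPM. *Cdh2*, N-cadherin, was the member that rose, at 38.8, 40.7 and 37.2 CPM against 1.27, 12.2 and 24.1 CPM (2.38 ± 0.14, adjusted p = 4.9e-09), with LL2 and MC38 means of 21.9 and 21.7 CPM nearest to it. Epithelial junction and keratin genes were lower in 12 of 26 (46.2%), with 1 higher that was not called by DESeq2, with the replicate block (0 calls), or without B16 tumor 1, B16 tumor 3, LL2 tumor 2, Pan02 tumor 1 or EO771 tumor 1. *Krt8*, the simple epithelial keratin, stood at 2.95, 3.61 and 1.65 CPM against 2.88, 557 and 1309 CPM (-6.71 ± 0.93, adjusted p = 2.8e-05), the lowest of the other tumors lying within the B16 range.

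In bulk tumors fewer cells of a type and less RNA per cell cannot be told apart, which touches every result on stroma and immune cells. Fibroblast markers were lower in 19 of 21 (90.5%) and higher in 1, with a median of -3.12. *Pdgfra* stood at 1.77, 3.05 and 6.44 CPM against 54.2, 98.1 and 188 CPM (-4.69 ± 0.35, adjusted p = 7.9e-08), and *Col1a1* at 178, 543 and 732 CPM against 1095, 3175 and 26480.2 CPM (-3.27 ± 0.59, adjusted p = 0.00031). Both genes were lowest in B16 tumor 1 and highest, within B16, in tumor 3. The defining markers *Pdgfra*, *Dcn* and *Col1a1* summed to 184 to 773 CPM in B16 and to 1290 to 26844 CPM elsewhere, and their part in the results on mesenchymal factors, TGF-beta and matrix was not tested. Pericyte markers were higher in 1 of 10 and lower in 4, and the higher call was absent without B16 tumor 2 or B16 tumor 3.

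**Figure D4:**
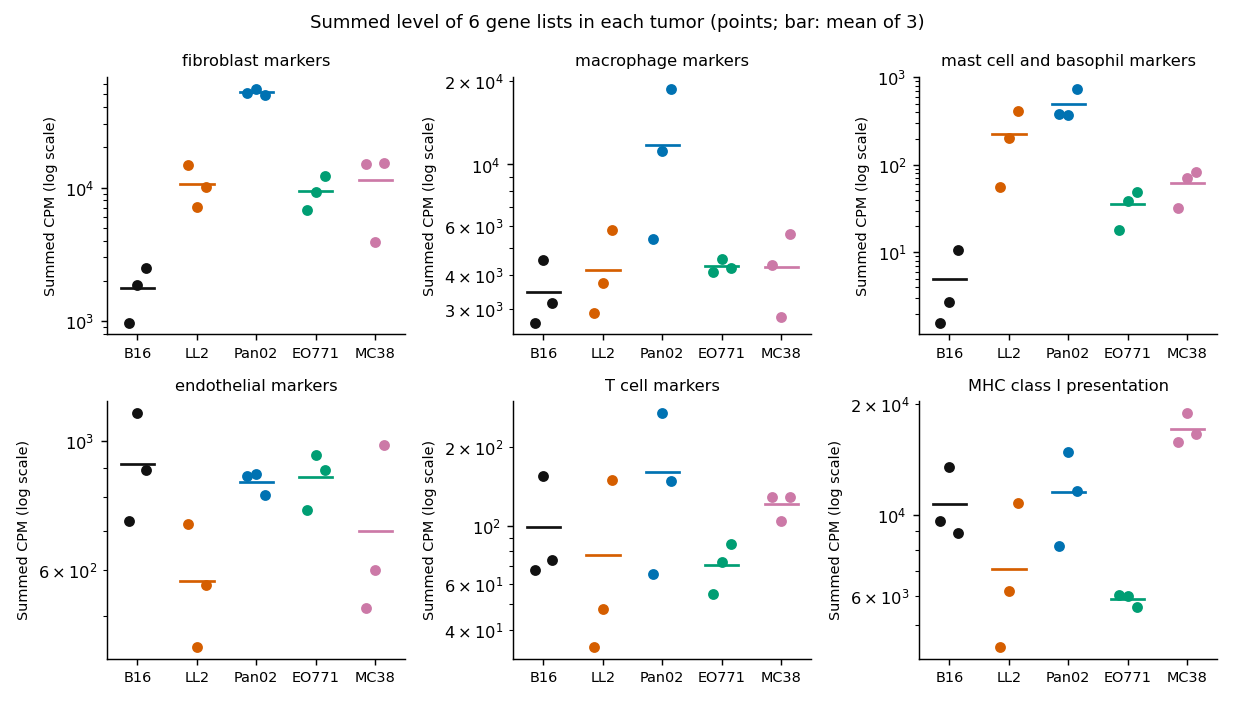
Summed CPM of the members of 6 gene lists in each tumor, on log y axes, with points for tumors and bars for means of 3. B16 is below all other tumors for fibroblast (967.5 to 2476 CPM) and mast cell markers, and within their range or overlapping it for macrophage, endothelial, T cell and MHC class I sums.

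Matrix genes were mostly low, with exceptions. Collagens were lower in 25 of 39 (64.1%) and higher in 6, laminins and integrins lower in 20 of 37 (54.1%) and higher in 4, and matrix proteases and inhibitors lower in 25 of 43 (58.1%) and higher in 2, with medians of -2.40, -1.21 and -2.28. *Col4a4*, a basement membrane chain, rose to 11.7, 8.27 and 9.98 CPM against 0.0680, 0.359 and 1.38 CPM (4.82 ± 0.34, adjusted p = 4.3e-08). *Itga4*, which binds VCAM1, stood at 61.8, 60.6 and 73.2 CPM against 8.08, 12.8 and 40.9 CPM (2.10 ± 0.33, adjusted p = 9.3e-05), while *Itga3*, a laminin receptor of epithelia, stood at 9.72, 16.8 and 7.23 CPM against 41.2, 232 and 562 CPM (-4.19 ± 0.33, adjusted p = 1.2e-07). Neither integrin overlapped between groups.

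*Fbln1*, a matrix glycoprotein and the 1 fibroblast marker that was higher, stood at 305, 324 and 340.4 CPM against 11.97, 42.9 and 129 CPM (2.87 ± 0.29, adjusted p = 1.7e-06), whereas *Fbln2*, of the same family, stood at 7.47, 33.1 and 46.0 CPM against 85.2, 714 and 2048 CPM (-4.25 ± 0.58, adjusted p = 2.6e-05). Among enzymes, *Adamts20*, a protease needed by melanoblasts, stood at 25.2, 17.5 and 26.5 CPM against 0.0977, 0.438 and 3.34 CPM (5.36 ± 0.33, adjusted p = 1.2e-08), *Mmp9* at 0.688, 4.41 and 2.49 CPM against 30.4, 53.7 and 139 CPM (-4.46 ± 0.53, adjusted p = 7.1e-06) and *Loxl4*, a collagen crosslinker, at 0.688, 0.995 and 1.30 CPM against 27.9, 48.2 and 105 CPM (-5.65 ± 0.24, adjusted p = 2.6e-10). The groups were separate for all 5 of these genes. S100 proteins were lower in 10 of 12 (83.3%), *S100b* being the member that was higher, and *S100a6* stood at 14.8, 24.99 and 29.9 CPM against 378, 904 and 1609.5 CPM (-5.20 ± 0.27, adjusted p = 1.8e-09). Without B16 tumor 3 or Pan02 tumor 3 the higher count was 2.

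Myeloid genes were low in B16 tumors. By flow cytometry, the study found macrophages at similar shares of living cells in most models and slightly more in B16 and MC38. It found few monocytic myeloid-derived suppressor cells in B16. With CIBERSORT, a tool that estimates cell shares from RNA, the study put macrophages well above the flow cytometry values in every model but B16. How the cell counts relate to the marker levels given here was not tested. Macrophage markers were lower in 19 of 20, 11 of them against each of the 4 models, with a median of -1.64. *Csf1r*, the receptor of macrophage colony-stimulating factor, stood at 37.3, 71.8 and 64.3 CPM against 94.1, 172 and 572 CPM (-1.87 ± 0.35, adjusted p = 0.00041), and *C1qa*, of complement C1q, at 113, 243 and 209.7 CPM against 332, 516 and 2194 CPM (-1.81 ± 0.42, adjusted p = 0.0019). The summed level of the list overlapped, at 2679 to 4531 CPM in B16 and 2810 to 18769 CPM elsewhere. It was dominated by *Apoe*, a lipoprotein gene also expressed by other cells and chosen for mention after its values were seen, at 1982, 3334 and 2112 CPM against 782, 1667 and 10601.6 CPM (0.24, adjusted p = 0.55). The defining markers *Csf1r*, *Adgre1* and *C1qa* summed to 190.0 to 370 CPM in B16 and 587 to 2932 CPM elsewhere, without overlap.

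Monocyte and neutrophil markers were lower in 12 of 14 (85.7%), with a median of -3.34. *Il1b*, interleukin-1 beta, stood at 1.18, 2.05 and 2.84 CPM against 10.2, 22.99 and 85.6 CPM (-3.89 ± 0.74, adjusted p = 0.00044). All 9 mast cell and basophil markers were lower, with a median of -4.34, and *Tpsb2*, a mast cell tryptase, stood at 0.295, 0.684 and 2.54 CPM against 5.30, 24.6 and 370.1 CPM (-4.98 ± 0.82, adjusted p = 0.00013). Chemokines were lower in 16 of 29 (55.2%) and higher in 1, with *Cxcl1*, which draws neutrophils, at 0.0982, 0.870 and 0.499 CPM against 1.08, 9.85 and 533 CPM (-4.68 ± 1.05, adjusted p = 0.0015), its high values coming from LL2, with a mean of 218 CPM. Complement genes were lower in 12 of 20 and higher in 3, or in 1 without B16 tumor 2, and *C2* rose to 312, 448 and 244 CPM against 6.25, 27.1 and 54.7 CPM (3.74 ± 0.24, adjusted p = 1.5e-08), with 46.9% of its exon bases shared with another gene.

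T cell markers were higher in none of 16 and lower in 2, with a median of 0.07, and the lower count was 0 without B16 tumor 1 and 1 without any of 10 other libraries. *Cd3e*, a chain of the T cell receptor complex, stood at 4.22, 13.9 and 5.89 CPM against 1.36, 5.60 and 18.8 CPM (0.49 ± 0.57, adjusted p = 0.47), so that B16 lay within the range of the other models. NK and cytotoxic cell markers gave 0 calls among 16 by edgeR, 0 at an unadjusted p under 0.05 and 1 lower by DESeq2, with 1 lower without LL2 tumor 1 and 1 higher without LL2 tumor 3. Flow cytometry in the study counted the most NK cells in B16, Pan02 and MC38. How that relates to these markers was not tested. Dendritic cell markers were lower in 2 of 13 (15.4%), below the background of 19.6%. The lower count was 4 by DESeq2 or with the replicate block, 6 without Pan02 tumor 1 and 1 without any single B16 tumor. There was 1 higher without Pan02 tumor 2. B cell markers were lower in 4 of 7 (57.1%), with a median of -1.87, or in 7 without Pan02 tumor 1. The study's flow cytometry found very few B cells in every model, with slightly more in B16, LL2 and Pan02. Endothelial markers were lower in 3 of 20 (15%) and higher in 1 (5%), both below the background shares. The lower count was 0 without B16 tumor 1, 7 without B16 tumor 2 and 1 without B16 tumor 3. *Pecam1* stood at 26.4, 51.0 and 34.0 CPM against 35.6, 68.4 and 95.4 CPM and was not called (-0.83 ± 0.23, adjusted p = 0.0071). The higher member was *Eng*, endoglin, at 450.2, 559 and 524 CPM against 84.8, 143 and 227 CPM (1.86 ± 0.13, adjusted p = 4.1e-08).

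Interferon genes were high in part. Genes induced by interferon gamma were higher in 7 of 19 (36.8%) and lower in 2, with 4 higher without B16 tumor 2 and 1 lower without EO771 tumor 3, and other interferon-stimulated genes were higher in 6 of 29 and lower in 3, or 1 without B16 tumor 1 or B16 tumor 3. *Irgm1*, an immunity GTPase, stood at 385, 468 and 349.9 CPM against 28.7, 103 and 306 CPM (1.86 ± 0.35, adjusted p = 0.00039), with MC38 nearest at a mean of 289 CPM. *Socs1*, the feedback inhibitor of interferon signalling, stood at 13.8, 33.6 and 29.0 CPM against 36.0, 69.7 and 201 CPM (-1.76 ± 0.40, adjusted p = 0.0017). Each group was separate for both genes. MHC class I presentation was higher in 2 of 20 and lower in none, with a median of 0.18, and MHC class II gave 0 calls among 11 by edgeR, 0 at an unadjusted p under 0.05 and 0 by DESeq2. There was 1 lower call without B16 tumor 2 or Pan02 tumor 1 and 3 without LL2 tumor 1.

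*B2m*, the shared chain of MHC class I, stood at 1917, 2607 and 1511 CPM against 564, 1376 and 2014 CPM and was not called (0.63 ± 0.23, adjusted p = 0.028). The heavy chain gene *H2-K1*, which has close paralogs, stood at 1431, 2299 and 1205 CPM against 361, 1590.2 and 4180.3 CPM (0.18 ± 0.31, adjusted p = 0.63). *Cd274*, PD-L1, stood at 49.4, 67.3 and 34.2 CPM against 13.4, 34.6 and 95.4 CPM (0.46 ± 0.36, adjusted p = 0.27). All 3 overlapped with the other models, and B16 tumor 2 was the highest of the B16 tumors each time. Immune checkpoint ligands were lower in 6 of 19 and higher in 1. *Cd47*, the signal against engulfment by macrophages, stood at 60.8, 65.5 and 52.7 CPM against 112, 162 and 211 CPM (-1.41 ± 0.11, adjusted p = 1.5e-07), and *Vsir*, VISTA, which myeloid cells also express, at 17.8, 38.7 and 33.8 CPM against 62.0, 118 and 229 CPM (-2.03 ± 0.30, adjusted p = 5.6e-05). B16 lay below every other tumor for both.

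Channels and carriers formed the last groups. Potassium, sodium, chloride and TRP channels were lower in 46 of 113 (40.7%) and higher in 13 (11.5%), with a median of -1.16, while solute carriers were near the background, with 45 of 264 higher (17.0%) and 57 lower (21.6%). *Scn1a*, a neuronal sodium channel, stood at 17.1, 11.3 and 12.6 CPM against 0, 0 and 2.12 CPM (7.75 ± 0.39, adjusted p = 1.1e-08), with its values elsewhere largely in MC38. *Ano3*, a scramblase of the anoctamin family, stood at 64.5, 62.0 and 49.9 CPM against 0, 0.207 and 1.69 CPM (7.69 ± 0.35, adjusted p = 5.4e-10). *Slc6a17*, a carrier of amino acids in synaptic vesicles, stood at 283, 241 and 219 CPM against 0.408, 1.80 and 13.9 CPM (6.61 ± 0.25, adjusted p = 1e-10). The groups did not overlap for any of them.

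Skin and tissue of the flank were checked last. Skeletal muscle markers were lower in 10 of 14, with a median of -5.04, and *Acta1* and *Ckm* summed to 2.85 to 3.19 CPM in B16 and 1.36 to 1873 CPM elsewhere. Skin keratinocyte markers were lower in 4 of 8, or 2 without B16 tumor 3. *Krt5* was at 0 in all B16 libraries but was not among the called members. The floor of 3 counts over the group puts it 66.5-fold below the mean of the other models. The interval for counting error reaches down to 54.1-fold. Adipocyte markers were lower in 2 of 10 (20%), near the background of 19.6%. That count was 1 without B16 tumor 1, B16 tumor 2, LL2 tumor 3, Pan02 tumor 2 or MC38 tumor 3. Red cell and platelet markers were lower in 3 of 8 (37.5%). The part of such tissue in the results above was not tested.

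The pigment genes and largest rises with a B16 mean of at least 500 CPM, 12 genes, stood in each of the other models at a median of 0.0477% to 0.0851% of their B16 mean. These genes were chosen as pigment genes or for their large rise without overlap. Low shares elsewhere follow from that choice and describe only its size. The highest single share was 3.36%, in EO771. CAFs of B16 tumors were not analysed here, and CAF libraries of the other 4 models served to describe where the genes are expressed. Of all genes tested, 78.8% reached 1 RPKM (read counts scaled to transcript length and library size) in the mean of these CAFs, with a median of 6.69 RPKM. The share was 59.2% for genes higher in B16, with a median of 1.72 RPKM, and 71.2% for genes lower in B16, with a median of 3.52 RPKM.

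By position, genes higher in B16 were most frequent on chromosome 6, with 195 of 805 tested (24.2%), and least frequent on chromosome 7 (8.79%). Genes lower in B16 made up 24.7% of those on chromosome 19.

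**Figure D5:**
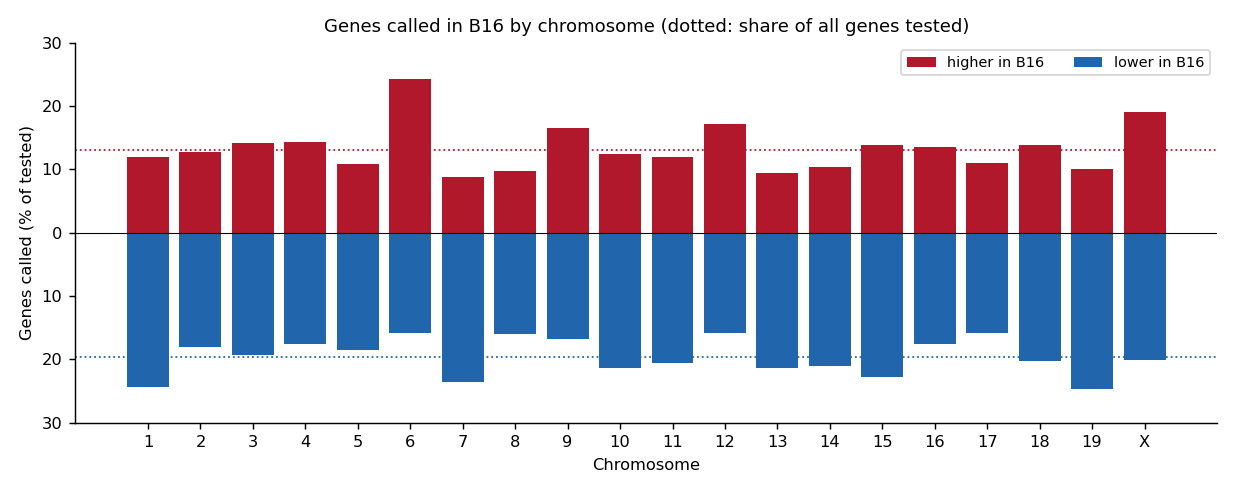
Share of tested genes called higher (red, above 0) or lower (blue, below 0) in B16 tumors on each chromosome, in percent on the y axis. Dotted lines mark the shares over all genes tested, 13.1% and 19.6%, and the tallest red bar is chromosome 6, at 24.2%.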

How the data were processed

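RNAseq of 15 whole tumors (3 each of B16, LL2, Pan02, EO771 and MC38) and of 8 CAF libraries was analysed. The authors made both tables by aligning reads to mm10 with STAR 2.5.0c and counting them over exons of RefSeq transcripts on both strands with HOMER, from unstranded poly(A) libraries. For tumors they deposited expected counts in steps of 0.5, which were rounded here to whole numbers, and for CAFs they deposited RPKM, used only as levels. Of 40458 transcripts 2 name no gene (2.08e-05% of counts). Each symbol took its transcript with the largest mean count, and 69.4% of the 24940 symbols had 1 transcript. The 5 columns of another model were not used.

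Genes passing filterByExpr (15722) entered the quasi-likelihood model of edgeR 4.0.16 after TMM scaling (1 term per model, 15 tumors, common dispersion 0.0559), with Benjamini-Hochberg adjustment. DESeq2 1.42.0 was an alternative. The floor was 3 counts, or 0.144 to 0.295 CPM per library, and intervals cover counting error only. Tests on simulated data with 200 changed genes counted calls at an adjusted p under 0.05 alone, without the fold threshold used for the calls above. They gave 151 recovered by edgeR (63 of 100 at 2-fold and 88 of 100 at 4-fold) with 6 false calls. DESeq2 recovered 159 with 33 false calls. Named genes were the 14 largest rises and falls with separate groups and at least 10 CPM, up to 4 called members per list and direction, a set of single genes, the genes within 1 Mb of *Cdkn2a* and the 5 most variable B16 genes. A gene that this rule takes is not reported here. The members and the gene lists were chosen with earlier results of these data known. Exon sharing was taken from GENCODE and promoters from RefSeq. Scripts ran in R 4.3.3 and in Python 3.11.15, with scipy 1.17.1 for intervals, pandas 2.3.3 and numpy 2.4.6 for tables, and matplotlib 3.10.9 for figures.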

Additional observations from a re-analysis of the deposited data

How the results depend on the processing

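The 2058 genes higher in B16 and the 3078 genes lower in B16 became 5008 and 4971 with no fold threshold, and 918 and 1149 when a call in each of the 4 single contrasts was asked. Leaving out each library in turn gave 2030 to 2190 higher and 2708 to 3196 lower. The 6 other settings (DESeq2's test, its size factors, total-count scaling, no filter, the longest transcript, the replicate block) gave 2033 to 2316 higher and 3037 to 3202 lower, and the replicate block alone gave 2061 and 3078. Same-numbered tumors of 2 models correlated at -0.17 to 0.25 (median 0.01, 5 of 30 pairs over 0.1). The 3 pairs of B16 with Pan02 were all over 0.1 (0.205, 0.161 and 0.12; differently numbered pairs -0.133 to 0.021), whereas no other model had all 3 pairs with B16 over 0.1, so pairing was not assumed over the 5 models. DESeq2 shared 2041 of the higher and 3034 of the lower calls. Of 345 called named genes 300 were called in every setting, 45 lost the call in at least 1, and 0 reversed. Counts per list stayed within 1.5 times in every setting for 54 of 67 lists (higher) and 52 of 67 (lower). With 3 tumors of 1 line per model, depth limits the genes near the floor, such as *Cdkn2a*, *Pou3f2* and *Grem1*, and small folds. The simulation changed 200 genes, whereas 9979 genes had an adjusted p under 0.05 by edgeR's test in the data. Its share of 2-fold changes recovered therefore need not hold for these data.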

Other observations

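Lists outside the main account were mixed. Cancer-germline and melanoma antigens were higher in 3 of 10 and lower in 0 by edgeR (2 lower by DESeq2), ganglioside genes higher in 2 and lower in 3 of 13, Nrf2 targets higher in 4 and lower in 3 of 19, and NKG2D ligands higher in 1 and lower in 1 of 7. Neuronal and synaptic genes were higher in 2 of 15 and lower in 9, although neural genes such as *Syt4* were among the largest rises. *Pou3f2*, a POU factor of neural cells and melanoma, stood at 6.19, 4.35 and 5.89 CPM in B16 against at most 0.202 CPM elsewhere.

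Calls were unevenly spread over chromosomes, as the plot of calls by chromosome shows. Chromosome 6 held 195 genes higher in B16 of 805 tested (24.2%), with a median log2 difference of 0.40 over its genes, followed by chromosomes X (19.1%), 12 (17.2%) and 9 (16.6%). Chromosome 7 had the lowest share, 8.79%, and chromosome 19 had a median of -0.34 with 24.7% of genes lower. Both *Mitf* and *Met* lie on chromosome 6. Among 198 windows of 10 Mb with at least 30 genes, chosen after the data were seen and given as a description, the highest median was 0.89, from 50 to 60 Mb of chromosome 6, where 30 of 66 genes (45.5%) were higher. The next were 0 to 10 Mb (11 of 31, 0.81) and 80 to 90 Mb (33 of 109, 0.76) of chromosome 6 and 70 to 80 Mb of chromosome 9 (26 of 65, 0.71). The lowest medians were -0.95 at 80 to 90 Mb of chromosome 1 and -0.81 at 60 to 70 Mb of chromosome 7. DNA copy number was not measured.

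B16 tumors differed among themselves in stromal genes. The ratio of the highest to the lowest B16 tumor was 33.9 for *Igfbp5*, which stood at 0.589, 14.5 and 20.0 CPM, 11.4 for *Lox* (2.16, 17.0 and 24.7 CPM), 9.28 for *Dcn* (3.73, 9.95 and 34.6 CPM) and 6.16 for *Fbln2* (7.47, 33.1 and 46.0 CPM). These 4 genes of fibroblasts and matrix were lowest in tumor 1 and highest in tumor 3. *Kcnj13*, a potassium channel gene whose exons share 49.1% of bases with another gene, had its highest value in tumor 2, at 91.3, 222 and 27.5 CPM (ratio 8.08), against at most 0.337 CPM elsewhere.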
